A study of Mus musculus with 2 samples.

Results

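Keratin genes of suprabasal epidermis and of simple epithelia, 10 in all, were compared between 2 structures of the mouse hair follicle. They are Krt1, Krt2, Krt10, Krt77 and Krt80, which are keratins of the layers above the basal layer, and Krt7, Krt8, Krt18, Krt20 and Krt23, which are best known from single-layered and glandular epithelia. The genes were chosen by their symbol on the array platform, and 12 of 45101 probe sets carried one of the 10 symbols. Krt8 had 3 probe sets and each other gene had 1. The samples were the bulge, a region of the outer root sheath that houses follicle stem cells, and the hairshaft. Both came from C57Bl6 mice aged 21 days and were cut by laser from frozen, eosin-stained skin sections. There was 1 array for each structure, and the labels name no treatment, genotype, sex or body site. The number of animals behind each array is not given in the sources used here.

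Keratins build the intermediate filaments of epithelial cells, and a filament always pairs a type I with a type II keratin. Basal keratinocytes make Krt5 with Krt14, and when a cell leaves the basal layer it switches to Krt1 with Krt10, which form the dense filament bundles of the spinous and granular layers. Simple epithelia use Krt8 with Krt18, often with Krt7 or Krt20. In skin these simple keratins are known from Merkel cells, the touch receptors of the epidermis, and from gland epithelium.

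All values are log2 GCRMA values, in which background is corrected from probe sequence, and 1 unit is a 2-fold step. Differences are bulge minus hairshaft. With 1 array per structure, no difference can be set against a replicate spread, and no test was possible. The values describe these 2 arrays, whose number limits the precision. A floor of 2.68 on both arrays marks where signal cannot be told from background; it was set at the 95th percentile of the values of 80 olfactory or vomeronasal receptor probe sets. In bulk tissue, fewer cells of a type and less RNA per cell cannot be told apart.

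Markers of other structures differed between the arrays and went partly against the labels. Of 10 hair shaft genes, mostly hair keratins, 10 exceeded the floor in the bulge sample but 6 in the hairshaft sample, with summed levels of 8.71 and 6.26 (log2 of the sum of linear values). Of 8 bulge stem cell genes, 7 reached 2-fold higher values in the bulge. The 10 skeletal muscle genes had summed levels of 17.4 in the bulge against 6.52 in the hairshaft, and the 7 measured adipocyte genes 15.9 and 7.44. Summed levels include genes at or below the floor, so the low ones (6.26, 6.52 and 7.44) hold some background. The summed level of the 6 fibroblast genes went the other way, with 15.1 in the bulge against 16.3 in the hairshaft. Of these genes 3, all collagens, reached 2-fold higher values in the hairshaft, while Pdgfra was higher in the bulge (8.18 against 7.52). The summed level of the 6 immune genes was 13.2 in the bulge against 13.9 in the hairshaft. Of them 2 reached 2-fold higher values in the hairshaft, H2-Eb1 (6.09 in the bulge against 11.47) and Cd3e (5.77 against 7.25). Basal keratinocyte genes had nearly the same summed level, 15.8 in the bulge against 15.9 in the hairshaft. Of these 6 genes 1 reached 2-fold, Itga6, with 11.21 in the bulge against 12.31 in the hairshaft. The part of these other tissues in the keratin values was not tested.

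The members fell into a bright and a dim set on both arrays. Krt1, Krt10, Krt77, Krt80 and Krt23 were above 11 on each array, whereas Krt2, Krt7 and Krt18 lay within 0.70 of the floor and Krt8 and Krt20 were at or below it. None of the 8 members above the floor on at least 1 array was 2-fold apart. Over all 13329 genes that exceeded the floor, 16.4% differed 2-fold or more, with 11.4% higher in the bulge and 4.91% higher in the hairshaft. A further set, called bright genes here, was the 626 genes above 11 on both arrays, a limit chosen after the values were seen. Of these, 5.91% were at least 2-fold apart in either direction (2.72% higher in the bulge, 3.19% in the hairshaft). The limit leaves out genes that were bright on only 1 array, so a low share is partly built in. The same holds for the shares of bright genes given below. The largest difference among the members was that of Krt23, higher in the hairshaft.

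**Figure D1:**
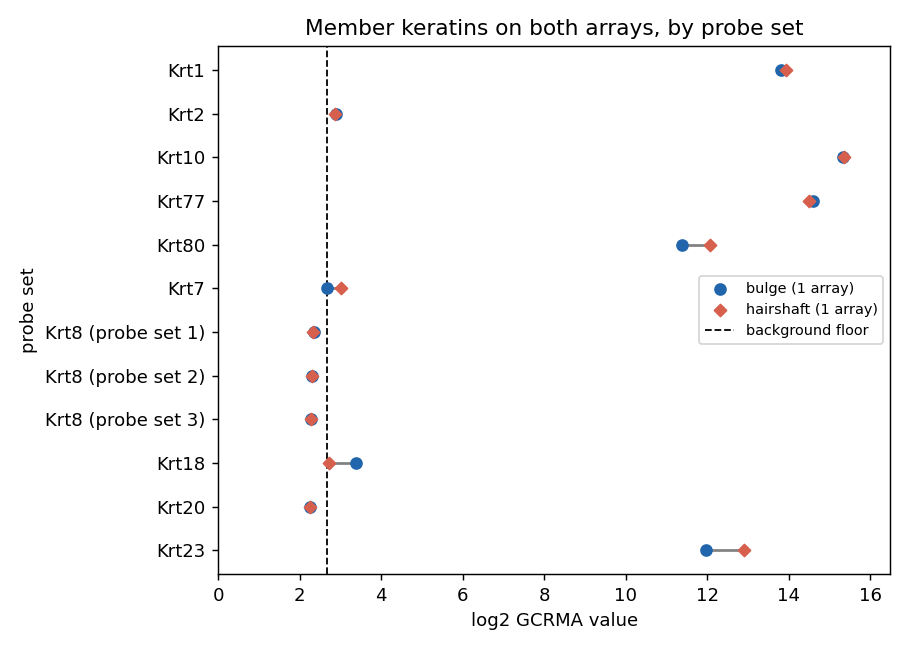
Log2 GCRMA values (x axis) of the 12 probe sets of the 10 keratin genes (y axis); circles are the bulge array, diamonds the hairshaft array, and the dashed line is the background floor of 2.68. Krt1, Krt10, Krt77, Krt80 and Krt23 sit above 11 on both arrays and the other 5 at or near the floor, with the widest gaps among the bright genes in Krt23 and Krt80.

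Promoter sequence was read for members of both sets, to show genes of the same keratin clusters that read far above the floor or close to it. RefSeq promoters of GRCm38.p6 were matched for 8 of the 10 members, and the 100 bases before the annotated start are given 5′ to 3′ for 5 of them. Krt10 and Krt77 were bright, Krt2 and Krt20 near or below the floor, and Krt23 had the largest difference. Capitals mark TATAAA or TATATA.

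Krt10 (chr11:99389365-99389464, minus strand): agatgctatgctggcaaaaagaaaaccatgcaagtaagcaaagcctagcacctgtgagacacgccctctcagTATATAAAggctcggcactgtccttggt
Krt77 (chr15:101869706-101869805, minus strand): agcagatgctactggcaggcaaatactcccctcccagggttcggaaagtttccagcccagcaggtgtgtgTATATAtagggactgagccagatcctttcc
Krt2 (chr15:101818170-101818269, minus strand): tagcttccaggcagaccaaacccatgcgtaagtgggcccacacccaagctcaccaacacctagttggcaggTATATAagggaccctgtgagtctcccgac
Krt20 (chr11:99438154-99438253, minus strand): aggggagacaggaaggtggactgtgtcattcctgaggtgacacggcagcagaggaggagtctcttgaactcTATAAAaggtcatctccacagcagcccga
Krt23 (chr11:99493121-99493220, minus strand): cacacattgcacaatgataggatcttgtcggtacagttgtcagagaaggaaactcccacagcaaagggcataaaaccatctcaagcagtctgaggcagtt

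The TATA-like letters stood in bright and dim members alike. TATATA was in 3 of the 8 windows (Krt10, Krt77 and Krt2) and in 2.19% of all 32851 RefSeq promoter windows of this length. TATAAA was in 2 of 8 (Krt10 and Krt20) and in 5.56% of all windows. In Krt10 the motifs overlap, and in each of these 4 genes the match began between 26 and 30 bases before the start. GGGCGG, a GC box, was in 1 of 8, in Krt7, which held it 2 times (24.7% of all windows), and TGANTCA, the AP-1 motif, in 0 of 8 (2.73%). Both strands were searched, and overlapping copies of 1 motif were counted once. A match is a string of letters in this window and not a binding site.

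Krt1 and Krt10, the filament pair of the spinous layer, were nearly equal on both arrays. Krt10 had 15.33 in the bulge against 15.36 in the hairshaft, the highest value of any probe set on each array. The difference was -0.03, and 94.7% of bright genes were at least this far apart. Its partner Krt1, the type II keratin of the pair, had 13.82 in the bulge against 13.93 in the hairshaft, a difference of -0.11, and 77.5% of bright genes were at least this far apart. Both genes changed sign when a loess trend was removed, to 0.14 for Krt10 and 0.05 for Krt1, so neither has a settled direction. Whether values this near the top of the scale still follow abundance was not tested.

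Krt77, a type II keratin of mouse interfollicular epidermis, was as close. It had 14.59 in the bulge against 14.49 in the hairshaft, a difference of 0.10, with 79.6% of bright genes at least this far apart. Krt80, a type II keratin of cells nearing terminal differentiation, had 11.38 in the bulge against 12.07 in the hairshaft. That is 1.60-fold higher in the hairshaft, a log2 difference of -0.68, and 16% of bright genes were at least this far apart. Krt80 kept its direction in the 9 alternatives run, from -0.71 to -0.53. With 1 plain probe set far above the floor, only the offset, loess and quantile settings could change its difference.

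Krt2, the type II keratin of the uppermost suprabasal layers, was barely above background. In mouse skin it is best known from the ear, tail and sole. It had 2.89 in the bulge against 2.88 in the hairshaft, which is 0.21 and 0.20 above the floor. Among the 5 suprabasal keratins, 0 were at least 2-fold apart in either direction and the median difference was -0.03, against 0.00 over all 13329 genes above the floor and -0.12 over the bright genes.

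Krt23, a type I keratin, was the bright member of the simple epithelial set. It had 11.97 in the bulge against 12.92 in the hairshaft, a log2 difference of -0.95, or 1.93-fold higher in the hairshaft. Of bright genes, 6.71% were at least this far apart, and of all genes above the floor 17.6%. Krt23 lies next to the 2-fold limit and passed it with quantile normalization, where it was the 1 member counted as higher in the hairshaft. Over the 9 alternatives its smallest difference was -0.79, with the loess trend removed. For Krt23, as for Krt80, only the offset, loess and quantile settings could change the difference.

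For genes with more than 1 bright probe set, the arrays hold a measure of scatter between probe sets. Among 105 genes with 2 probe sets above 11 on both arrays, the differences of the pair lay 0.14 apart at the median and 0.43 at the 95th percentile. The differences of Krt23 and Krt80 were larger than that percentile, and those of Krt1, Krt10 and Krt77 were smaller than the median. That gap is another quantity than a gene's distance from 0. Passing it was not particular to these members, since 16% of bright genes were at least as far apart as Krt80. This scatter comes from the same 2 hybridisations and leaves out the spread between animals, dissections and amplifications.

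The Krt8 and Krt18 pair, the first keratins of simple epithelia, gave little or no signal. The 3 Krt8 probe sets had 2.36, 2.31 and 2.29 in the bulge and 2.34, 2.30 and 2.28 in the hairshaft, all below the floor. Krt18, its type I partner, had 3.38 in the bulge against 2.72 in the hairshaft, a difference of 0.66, with the hairshaft value only 0.05 above the floor. The Krt18 difference was 0.22 when an offset of 16 was added to the linear values. No call rests on levels this close to the floor.

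Krt7 and Krt20 were as dim. Krt7, a type II keratin of ducts and glands, had 2.68 in the bulge, level with the floor, and 3.03 in the hairshaft, a difference of -0.34 that shrank to -0.11 with the offset. Krt20, a type I keratin of Merkel cells and gut epithelium, had 2.26 on both arrays, the same value to the last decimal. With a higher floor, either at the 99th percentile of those receptors (4.21) or at the median of all probe sets, Krt2, Krt7 and Krt18 were below the floor too, and 5 of the 10 members were left.

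Markers of the cells known for simple keratins were set beside these values. Of 12 Merkel cell genes 11 were measured, and 6 of them were above the floor on neither array. These were the transcription factors Atoh1, Sox2, Pou4f3 and Insm1, the touch channel Piezo2 and the tubulin Tubb3. Of the other 5, Isl1 was at least 5.10-fold and Cck 2.36-fold higher in the bulge, the hairshaft value of Chga was at least 3.95-fold higher (a bound, as the lower value is below the floor), and Syp and Rab3c were under 2-fold apart. The list's summed levels were 6.71 in the bulge against 6.42 in the hairshaft, and they hold background from the genes below the floor. Of 11 measured genes of simple epithelium and gland ducts, 8 were above the floor on each array, with summed levels of 13.1 and 12.9. Aqp5, Elf3 and Prom1 among them had at most 3.52 on either array, below the 99th percentile floor of 4.21. Of this list 1 gene reached 2-fold, Ehf, with 8.33 in the bulge against 7.24 in the hairshaft, a 2.13-fold difference. Epcam, an epithelial adhesion molecule that follicle and gland cells share, had 12.03 in the bulge against 11.23 in the hairshaft. Esrp1 had 11.78 and 12.09. Epcam and Esrp1 were the brightest of the list on each array, so the summed levels mainly follow them. Foxa1, Cldn7 and Cftr were above the floor on neither array.

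The members' neighbours in the genome were read against the floor. Probe sets differ in affinity, so levels of different genes are not compared here, and each is described only by its place relative to the floor. In the RefSeq order of protein-coding genes on chromosome 15, Krt2, Krt1, Krt77 and Krt76 follow each other. Krt1 and Krt77 in the middle were bright, while Krt2 and Krt76, a keratin of oral epithelium at 2.92 on both arrays, were near the floor on either side. Krt8 and Krt18 are direct neighbours, although Krt18 is a type I gene in the type II cluster. On the other side of Krt8 lies Krt78, with 10.01 in the bulge against 11.17 in the hairshaft. Krt80 and Krt7 are neighbours as well, the first bright and the other near the floor.

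On chromosome 11, which holds the type I cluster, Krt20 and Krt23 are neighbours, with Krt20 below the floor and Krt23 bright on both arrays. Krt10 lies between Krt28, an inner root sheath keratin with 5.44 in the bulge against 3.57 in the hairshaft, and Krt12, the keratin of the cornea, which was below the floor on both arrays. The difference of Krt28 was 1.87, while Krt10 beside it was level.

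Differences of 2-fold or more were common among the other keratins. Of 38 other keratin genes measured, 31 were above the floor, and 51.6% of these were at least 2-fold apart, namely 14 (45.2%) higher in the bulge and 2 (6.45%) in the hairshaft. Their median difference was 0.56, against -0.07 for the 8 members above the floor. The 14 were Krt31, Krt33a, Krt33b, Krt34, Krt81 and Krt86 of the hair, Krt25, Krt27, Krt28, Krt71 and Krt73 of the inner root sheath, Krt75 of the companion layer, Krt24 and Krt79. The hair keratins Krt32, Krt35, Krt36 and Krt83 and the inner root sheath keratin Krt72 were under 2-fold apart. Those not covered by the lists are named after their values were seen. These counts are a description of 2 arrays, and the difference between the sets was not tested.

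**Figure D2:**
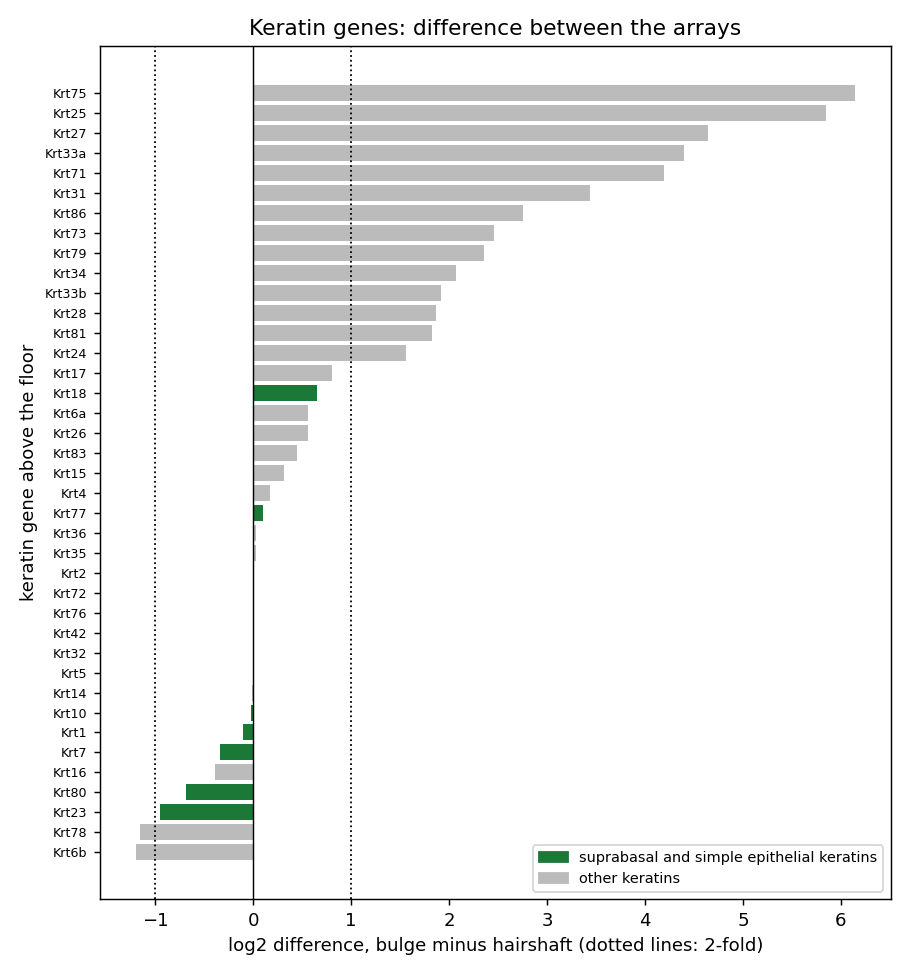
Log2 difference, bulge minus hairshaft (x axis), of the keratin genes above the floor (y axis), with the 8 members in green and the 31 other keratins in grey; dotted lines mark 2-fold. The members lie between -0.95 and 0.66, and the other keratins reach 6.14.

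Other keratins of stratified and simple epithelia were divided. Of 12 listed, 11 were measured and 7 were above the floor, of which 1 reached 2-fold in the bulge's favour and 2 in that of the hairshaft. Krt24, a type I keratin of differentiated keratinocytes, had 7.76 in the bulge against 6.19 in the hairshaft, a 2.96-fold difference. Krt78, a type II keratin of stratified epithelia, was 2.23-fold and Krt6b, a keratin of the companion layer and of wounded epidermis, 2.29-fold higher in the hairshaft. These 3 stayed at least 2-fold apart in the 9 alternatives. Each has 1 plain probe set far above the floor, so only the offset, loess and quantile settings could change its difference.

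Krt6a and Krt16, a filament pair of stressed and hair-bearing epithelium, were under 2-fold apart, with differences of 0.56 and -0.39. Krt19, the small keratin of simple epithelia and of the bulge in mice, had 2.23 on both arrays, below the floor. It is named here after its value was seen, as are Krt12 and Krt13, also below it. The list median was 0.00, the difference of Krt76, which was near the floor with 2.92 on both arrays. The median was -0.39 with the 99th percentile floor or with plain probe sets.

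Genes switched on together with the suprabasal keratins passed 2-fold about as often as all genes, but only in the direction of the hairshaft. Of 16 such genes, all above the floor, 3 reached 2-fold in the direction of the hairshaft, 0 in that of the bulge, and 13 did not reach it either way. The share past 2-fold was 18.8%, against 16.4% of all genes above the floor counted in either direction. In the direction of the hairshaft alone, 4.91% of all genes above the floor and 3.19% of bright genes passed 2-fold. The difference between these shares was not tested. Serpinb12, a serine protease inhibitor, had 7.03 in the bulge against 9.76 in the hairshaft, a 6.66-fold difference, or -1.40 on the log2 scale in place of -2.74 with the mean of its probe sets. Mt4, the metallothionein of stratified epithelium, had 10.22 and 12.76, a 5.81-fold difference. Lgals7, a galectin of keratinocytes, had 12.26 and 13.88, a 3.07-fold difference.

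Within that list the brightest genes were level, as Krt1 and Krt10 were. Krtdap, a secreted protein of suprabasal keratinocytes, had 15.11 in the bulge against 15.15 in the hairshaft, and Sbsn (suprabasin) 14.98 and 14.90. Both changed sign in an alternative, Krtdap with the loess trend removed (0.12) and Sbsn with the mean of its probe sets or with plain probe sets (to -0.45). The list median was -0.37, and -0.22 with the loess trend removed.

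Of 13 listed proteins that anchor or bundle keratin filaments, 12 were measured, and all 12 were under 2-fold apart. At least 2-fold apart were 16.4% of all genes above the floor and 5.91% of bright genes, so most genes were under 2-fold apart too. The higher value was in the hairshaft for 10 of the 12, with a median of -0.37 (-0.22 with the loess trend removed). Bright genes leaned the same way, with 391 higher in the hairshaft against 231 in the bulge. Dsp (desmoplakin), which ties keratin filaments to desmosomes, had 14.29 in the bulge against 14.10 in the hairshaft. Pkp1 (plakophilin 1), of the same plaque, had 13.50 and 13.65, and the sign of its difference changed with the loess trend removed.

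Transcription factors and receptors that act on suprabasal differentiation were under 2-fold apart too. Of 20 listed, 19 were measured, and 16 had the higher value in the hairshaft and 3 in the bulge. Over all 13329 genes above the floor these counts were 6205 and 5981, and 16.4% were at least 2-fold apart. The list median was -0.33 (-0.18 with the loess trend removed). Klf4, a factor of barrier formation, had 12.81 in the bulge against 13.14 in the hairshaft. Klf5 had 11.50 and 12.36, a difference of -0.86, and -1.47 with plain probe sets, where it alone of this list passed 2-fold.

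Bright genes as a whole leaned slightly to the hairshaft. Of the 626 genes above 11 on both arrays, 391 had the higher value in the hairshaft against 231 in the bulge, with a median of -0.12. With the loess trend removed the median was 0.03 and the counts were 289 and 337. The medians of the companions, anchors and regulators were further from 0 than the -0.12 of the bright genes and stayed negative with the loess trend removed. Each of these lists also holds genes below 11, such as Tgm1, Fam83h and Notch1. The sets therefore differ in brightness, and the difference between their medians was not tested. With no member at least 2-fold apart, no genes were looked up for a pattern like that of a member.

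**Figure D3:**
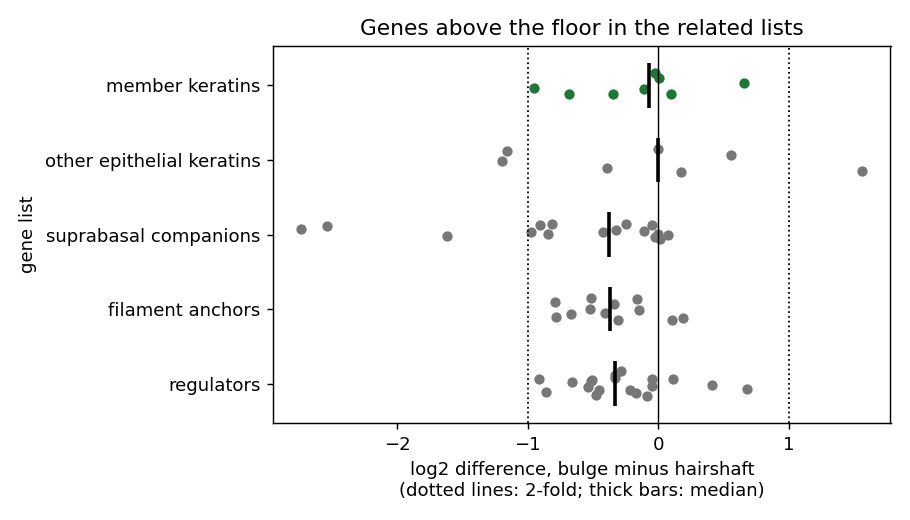
Log2 difference, bulge minus hairshaft (x axis), of each gene above the floor in the member keratins and in the 4 related lists (y axis, spread vertically for legibility); thick bars are medians and dotted lines mark 2-fold. The members, anchors and regulators lie within 2-fold, and Serpinb12, Mt4 and Lgals7 lie farthest to the left.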

How the data were processed

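Both arrays are Affymetrix mouse expression arrays. The authors deposited 1 log2 value per probe set, made with GCRMA per the submitters' processing notes. Its version and settings, and a genome build, were not given in the sources. Per the labels, 30 ng of total RNA was amplified. All columns were used (0 unmatched).

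Members were probe sets whose platform symbol is one of the 10 genes. The platform annotation gave 34958 probe sets with 1 symbol, 932 with several and 9211 with none; 34754 symbols were checked through the Entrez identifier against RefSeq (GRCm38.p6). A gene took its probe set with the highest mean (18194 genes). A value at or below the floor was replaced by the floor in differences. Genes were counted at 2-fold, with no p-value, since 0 residual degrees of freedom remain. The members and lists were chosen with earlier results of these data known. Named were all members, and from each list up to 4 genes at least 2-fold apart and 2 others with the highest mean. The counting was tested on simulated data. There were 9 alternative settings, and 2 more were added after seeing the data: leaving out identical values, and keeping only genes above 11 on both arrays. The software was numpy 2.4.6 and pandas 2.3.3 under Python 3.11.15, with statsmodels 0.14.6 for loess and matplotlib 3.10.9 for plots.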

Additional observations from a re-analysis of the deposited data

How the results depend on the processing

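No paired analysis was possible because each structure has 1 array, and for the same reason no replicate could be left out. The 9 alternatives were higher floors (the 99th percentile of receptor probe sets, the median of all probe sets), no floor, the mean of probe sets, plain probe sets, an offset of 16, loess trend removal, median removal and quantile normalization. Median removal returned the same values, since the median was already 0, and a count of 0 has little room to move. For a gene with 1 plain probe set well above the floor, the floor and probe set settings also returned the same value by construction. The counts at 2-fold that moved by over 1.5 times were these 4. With quantile normalization 1 member (Krt23) reached 2-fold in the direction of the hairshaft, as did, with plain probe sets, 1 regulator (Klf5). Restricted to genes above 11 on both arrays, 17 were higher in the bulge against 20 in the hairshaft. Of 189 alternative differences of single named genes, 2 moved by over 1.5-fold. Signals near the floor limit what can be said of Krt2, Krt7, Krt8, Krt18 and Krt20.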

Other observations

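Many probe sets had the same value on both arrays to the last decimal, Krt20 among them. These were 17293 of 45101 probe sets (38.3%), of which 3267 lay above the floor and the highest was at 13.93. Among the 38 other keratin genes 7 had such a value, including the hair keratin Krt32 at 5.71 and Krt42 at 6.73, which counted as above the floor and under 2-fold apart. Tgm3, a transglutaminase of the cornified envelope, was at 4.17 on both arrays.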
